A study of Mus musculus with 2 samples.

Results

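Hormone transcripts of the enteroendocrine cells, the scattered secretory cells of the gut epithelium, were examined in intestinal RNA of mice with and without the histone methyltransferase gene Setd2. The 10 genes were chosen by name as Gcg, Pyy, Nts, Gip, Cck, Sct, Ghrl, Sst, Tac1 and Tph1, and all 10 were found among the 18919 genes of the series table. The Setd2 knockout pool carried the genotype APCmin; Setd2IEC-/-, in which Setd2 is deleted in intestinal epithelial cells, and the control pool carried APCmin alone. All mice were C57BL/6, 2 months old and untreated, and all carried the Min mutation of the tumour suppressor Apc, so that both pools come from mice prone to intestinal adenomas. Each pool was the mixed RNA of 3 littermates and gave 1 library, so no difference below has a replicate check and no p-value was computed. The labels name the tissue as intestine, without a region and without the Cre driver of the deletion.

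Enteroendocrine cells arise from crypt progenitors through the basic helix-loop-helix factors Atoh1, Neurog3 and Neurod1, and release peptide hormones or serotonin when they sense food in the lumen. The peptides are made as prohormones, cut by convertases and stored in granules rich in chromogranins. Hormones differ along the gut: Gip, Cck, Sct and Ghrl are best known from the proximal small intestine and stomach, while Gcg, Pyy and Nts are best known from the ileum and colon.

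The promoters of 6 members are shown because these genes carry the main contrasts below: Gcg and Nts had the lowest ratios of knockout over control, Pyy is made in the same L cells as Gcg, Gip and Sst were lower by smaller factors, and Ghrl was the highest. Each window runs from 250 bases before to 50 bases after the annotated start, 5′ to 3′ (RefSeq, GRCm38.p6, the mm10 assembly). For genes with several annotated starts it is the most upstream one. Capitals mark the E-box CANNTG, the element bound by basic helix-loop-helix factors, and the cAMP response element TGACNTCA, each searched on both strands.
Gcg promoter, chr2:62483604-62483903, minus strand: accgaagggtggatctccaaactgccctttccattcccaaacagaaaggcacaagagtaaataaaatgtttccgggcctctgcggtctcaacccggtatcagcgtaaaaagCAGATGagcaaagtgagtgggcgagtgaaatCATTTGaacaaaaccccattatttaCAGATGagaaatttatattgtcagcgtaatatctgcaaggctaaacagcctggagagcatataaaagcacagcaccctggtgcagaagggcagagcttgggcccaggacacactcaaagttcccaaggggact
Nts promoter, chr10:102490369-102490668, minus strand: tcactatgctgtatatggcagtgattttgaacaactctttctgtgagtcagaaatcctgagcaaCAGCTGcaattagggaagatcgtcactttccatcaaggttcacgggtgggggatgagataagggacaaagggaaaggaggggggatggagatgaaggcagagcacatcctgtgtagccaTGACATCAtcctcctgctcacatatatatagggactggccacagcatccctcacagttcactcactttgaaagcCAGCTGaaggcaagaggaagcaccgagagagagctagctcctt
Pyy promoter, chr11:102107783-102108082, minus strand: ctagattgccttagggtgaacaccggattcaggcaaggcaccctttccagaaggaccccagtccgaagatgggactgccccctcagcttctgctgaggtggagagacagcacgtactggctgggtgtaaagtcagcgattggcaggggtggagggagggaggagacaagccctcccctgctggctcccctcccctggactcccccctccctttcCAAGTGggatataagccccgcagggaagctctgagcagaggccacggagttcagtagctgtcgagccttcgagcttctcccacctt
Gip promoter, chr11:96024295-96024594, plus strand: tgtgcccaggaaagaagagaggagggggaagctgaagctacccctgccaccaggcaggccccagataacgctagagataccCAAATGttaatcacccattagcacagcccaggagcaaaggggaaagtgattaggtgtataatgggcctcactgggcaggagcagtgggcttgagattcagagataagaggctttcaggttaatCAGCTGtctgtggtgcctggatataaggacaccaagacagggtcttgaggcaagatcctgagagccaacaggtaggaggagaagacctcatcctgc
Sst promoter, chr16:23890795-23891094, minus strand: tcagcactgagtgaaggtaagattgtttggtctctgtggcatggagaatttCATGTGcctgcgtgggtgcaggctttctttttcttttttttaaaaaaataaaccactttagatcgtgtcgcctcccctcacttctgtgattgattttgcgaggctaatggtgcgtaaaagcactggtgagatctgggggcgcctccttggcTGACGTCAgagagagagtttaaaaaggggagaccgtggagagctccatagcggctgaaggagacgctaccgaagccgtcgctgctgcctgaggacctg
Ghrl promoter, chr6:113719862-113720161, minus strand: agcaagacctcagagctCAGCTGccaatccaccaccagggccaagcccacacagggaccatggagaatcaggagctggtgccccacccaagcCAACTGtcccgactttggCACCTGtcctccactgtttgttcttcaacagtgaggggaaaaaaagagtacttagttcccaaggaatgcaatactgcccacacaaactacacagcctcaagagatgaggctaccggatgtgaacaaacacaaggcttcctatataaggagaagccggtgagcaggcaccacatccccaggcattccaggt
The E-box was present in the windows of 9 of the 10 members and in 72.3% of all 32851 mouse promoter windows of this length. The cAMP response element was present in 2 of the 10, Nts and Sst, and in 8.83% of all windows. In the Sst window it lay 48 bases before the start, as TGACGTCA, and in the Nts window 67 bases before it, as TGACATCA. The Gcg window held 3 E-boxes and no cAMP response element. The E-box at 36 bases before the start was the only match of either motif in the Pyy window. A match is a description of the letters only.

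The knockout library held 8646358 expected counts and the control library 8809678. Setd2 itself was at 3.47 FPKM in the knockout pool, against 6.87 FPKM in the control pool, a count ratio of 0.504 with a 95% counting interval of 0.432 to 0.587. FPKM is the level in fragments per kilobase of transcript, scaled to the mapped total, and the count ratio compares expected counts scaled to the library totals. The gene-level value sums all cells of the tissue and all exons, and the source of the Setd2 reads in the knockout pool was not tested. Apc was at 10.73 FPKM in the knockout pool and 10.51 FPKM in the control pool. The 9 epithelial markers summed to 7204 FPKM in the knockout pool and 7334 FPKM in the control pool, so that epithelial transcripts were abundant in both. Transcripts of other organs were higher in the knockout pool: the 17 pancreatic acinar genes summed to 2888 FPKM, against 146.8 FPKM in the control pool, with 16 of 17 at least 2-fold higher and a median log2 ratio of 4.49. The 10 gastric genes summed to 162.2 FPKM in the knockout pool, against 13.44 FPKM in the control pool. Their part in the hormone differences was not tested.

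The hormone genes differed in direction. Gcg and Nts were at least 2-fold lower in the knockout pool by the rule given next. Tac1 had a count ratio of 0.443 but a log2 ratio of FPKM + 1 of -0.95, just inside that rule. Gip and Sst were lower by smaller factors, and Ghrl and Sct were higher. By the rule used for the whole table, a log2 ratio of FPKM + 1 of at least 1 or at most -1, 2 of the 10 were lower and 0 were higher. Over the 13253 genes that reached 1 FPKM in either library, 1.28% were lower and 2.78% higher by this rule. The log2 ratio was below 0 for 7 members and above 0 for 3, against 37.2% and 62.5% of all measured genes, and the median was -0.38 for the members and 0.08 for all measured genes. The counting interval of the ratio lay below 1 for 5 members and above 1 for 2, against 12.5% and 28% of all measured genes. All 10 members passed the filter of 1 FPKM, but Gcg and Nts passed it through the control pool alone. In bulk RNA, fewer cells of a type and less RNA per cell cannot be told apart.

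**Figure D1:**
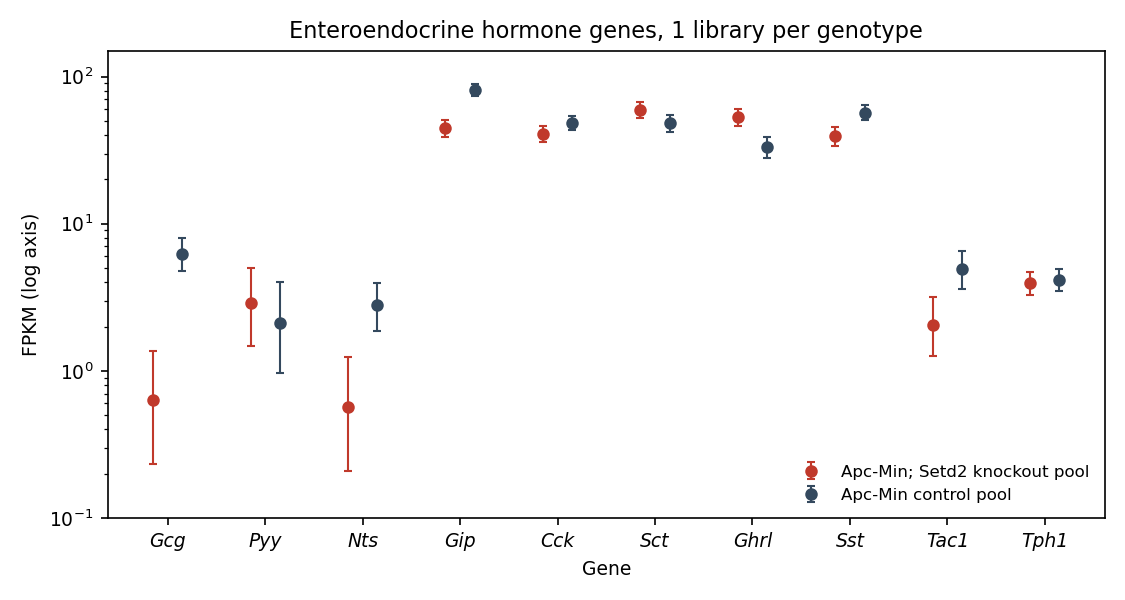
FPKM (log axis) of the 10 hormone genes in the Setd2 knockout pool (red, left) and the control pool (dark, right), 1 library each; bars are exact 95% Poisson counting intervals. Gcg is at 0.63 FPKM in the knockout pool against 6.21 in the control pool, while Pyy, Cck, Sct and Tph1 have intervals that overlap between the pools.

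The L-cell hormones diverged. Gcg encodes proglucagon, from which L cells cut GLP-1, an incretin that raises insulin release, and GLP-2, a growth factor of the gut lining. Gcg (gene identifier 14526, mm10 chromosome 2, 62474530 to 62483650, minus strand) was at 0.63 FPKM in the knockout pool, against 6.21 FPKM in the control pool. These values rest on 6 expected counts in the knockout library and 60 in the control library, and their intervals, 0.231 to 1.37 FPKM and 4.74 to 7.99 FPKM, do not overlap. The log2 ratio was -2.15, and the count ratio was 0.102, with an interval of 0.0360 to 0.235. Pyy encodes peptide YY, which L cells release with GLP-1 and which slows gut transit and curbs appetite (chromosome 11, 102106676 to 102107832, minus strand). Its level was 2.87 FPKM in the knockout pool, against 2.11 FPKM in the control pool, from 12 and 9 counts, and the interval of its count ratio of 1.36 was 0.525 to 3.65. At this depth no difference in Pyy was detectable. Relative to Pyy in the same libraries, Gcg was 0.0785 times as high in the knockout pool as in the control pool, with an exact interval of 0.0187 to 0.290. This ratio of ratios does not depend on how the libraries are scaled, and like every interval here it covers counting error only.

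Nts encodes neurotensin, a peptide of N cells of the distal small intestine that promotes fat absorption and slows motility (chromosome 10, 102481756 to 102490486, minus strand). It was at 0.57 FPKM in the knockout pool, against 2.78 FPKM in the control pool, from 6 and 30 counts. The knockout value was the lower one and the intervals, 0.209 to 1.24 FPKM and 1.88 to 3.97 FPKM, do not overlap. The log2 ratio of -1.27 and the count ratio of 0.204 (0.0693 to 0.498) place Nts with Gcg among the genes at least 2-fold lower. Against Pyy, the ratio of ratios for Nts was 0.156 (0.0362 to 0.597). Together, Gcg, Pyy and Nts held 24 counts in the knockout library and 99 in the control library, a ratio of 0.247 (0.151 to 0.389). Both calls depend on the low levels: with a pseudocount of 5 FPKM the log2 ratios were -0.99 for Gcg and -0.48 for Nts, and 0 members were past 2-fold.

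Markers of intestinal position went both ways. Of 10 measured distal and colon markers, 0 were at least 2-fold higher and 3 lower, namely Naaladl1, Car4 and Amn. The peptidase gene Naaladl1 was at 26.03 FPKM in the knockout pool and 86.45 FPKM in the control pool, and Car4, a carbonic anhydrase, at 44.79 and 113.92 FPKM. The ileal bile acid carrier gene Fabp6 was near the limit of detection, with 7 counts in the knockout library and 2 in the control library. The median of the list was -0.08, and 0.06 without the filter on low values. The counting interval of the ratio lay below 1 for 5 of the 10 and above 1 for 2. Of 13 proximal markers, 3 were at least 2-fold higher, Cybrd1, Slc11a2 and Slc40a1, and 0 lower. The log2 ratio was below 0 for 8 of the 13 and above 0 for 5, with a median of -0.39. The counting interval lay below 1 for 7 and above 1 for 5. Over all measured genes, 2.78% were at least 2-fold higher and 1.28% lower, and 37.2% had a log2 ratio below 0. The interval lay below 1 for 12.5% of them and above 1 for 28%. Lactase, Lct, was at 161.3 FPKM in the knockout pool and 271.2 FPKM in the control pool, the fatty acid carrier gene Fabp1 at 3179 and 4870 FPKM, and Hsd17b6 at 34.92 and 64.31 FPKM. Their part in the values of Gcg and Nts was not tested.

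Among the proximal hormones, Gip was lower and Ghrl higher. Gip encodes the incretin of K cells and was the most abundant member in the control pool (chromosome 11, 96024545 to 96030831, plus strand). Its level was 44.45 FPKM in the knockout pool, against 80.87 FPKM in the control pool, from 240 and 445 counts. The count ratio was 0.550 with an interval of 0.468 to 0.644, and its log2 ratio, -0.85, stayed inside 2-fold. Gip, Gcg and Sct encode hormones of 1 peptide family, the secretin family, yet their ratios differed. Relative to Gcg, Gip was 5.38 times as high in the knockout pool as in the control pool (2.29 to 15.5).

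Ghrl encodes ghrelin, the hunger hormone of X/A-like cells, which is made mostly in the stomach (chromosome 6, 113716119 to 113719880, minus strand). It was at 52.83 FPKM in the knockout pool, against 33.07 FPKM in the control pool, from 237 and 153 counts, and the 2 counting intervals do not overlap. Its count ratio of 1.58 (1.28 to 1.95) was the highest of the 10 members. In the mouse annotation Ghrl shares 695 bases with Gm44033 on the other strand, and as the strand setting of the counting is not given in the sources used here, reads of the 2 genes cannot be told apart. Gastric markers were higher in the same pool: 7 of 8 measured were at least 2-fold higher, with a median log2 ratio of 2.04. Over all measured genes, 2.78% were at least 2-fold higher. Except for Gkn3, the 8 passed the filter of 1 FPKM through the knockout pool alone, and without the filter the median was 1.56. Gkn1, a gastrokine of surface mucous cells, was at 22.24 FPKM in the knockout pool and 0.28 FPKM in the control pool, and Tff2, a trefoil peptide, at 27.58 and 0.83 FPKM. The acid pump gene Atp4a was at 1.31 and 0.19 FPKM. Their part in the Ghrl value was not tested. Mboat4, which encodes the enzyme that acylates ghrelin and was looked at after its values were seen, had 2.58 counts in the knockout library and 2 in the control library.

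Sct encodes secretin, the S-cell hormone that makes the pancreas release bicarbonate (chromosome 7, 141278330 to 141279133, minus strand). Its level of 59.56 FPKM was the highest of the members in the knockout pool, against 48.17 FPKM in the control pool, from 253 and 208 counts. The count ratio of 1.24 had an interval of 1.03 to 1.496, just above 1. Cck encodes cholecystokinin, which I cells release in response to fat and protein and which contracts the gallbladder (chromosome 9, 121489824 to 121495694, minus strand). It was at 40.77 FPKM in the knockout pool and 48.48 FPKM in the control pool, and its count ratio of 0.841 had an interval of 0.706 to 1.001. Relative to Cck, Gip was 0.654 times as high in the knockout pool as in the control pool (0.515 to 0.830). Summed over Gip, Cck, Sct and Ghrl, the counts were 971 in the knockout library and 1098 in the control library, a ratio of 0.901 (0.826 to 0.983), although single ratios ran on both sides of 1.

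Sst, the gene for somatostatin, which D cells use to restrain other endocrine and acid-secreting cells, was lower in the knockout pool (chromosome 16, 23889573 to 23890958, minus strand). It was at 39.32 FPKM there, against 56.98 FPKM in the control pool, from 195 and 288 counts, and the count ratio was 0.690 (0.572 to 0.830). Gastric D cells also make somatostatin, and the part of the gastric transcripts given above in the Sst value was not tested. Relative to Ghrl, Sst was 0.438 times as high in the knockout pool as in the control pool (0.330 to 0.579).

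**Figure D2:**
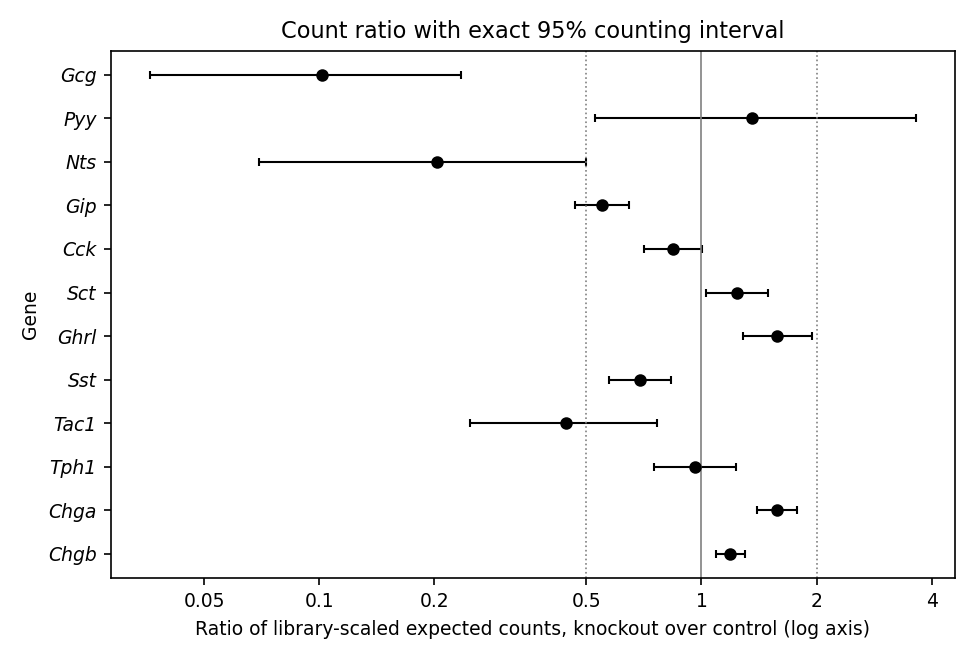
Ratio of library-scaled expected counts, knockout over control (log axis), for the 10 hormone genes and the chromogranin genes Chga and Chgb; points are the ratios, bars the exact 95% counting intervals, and dotted lines mark 2-fold. Gcg at 0.102 lies farthest to the left, and the intervals of Pyy, Cck and Tph1 include 1.

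The enterochromaffin genes separated as well. Tac1 encodes the precursor of substance P and neurokinin A, made by enterochromaffin cells and by enteric neurons (chromosome 6, 7554879 to 7565834, plus strand). It was at 2.05 FPKM in the knockout pool, against 4.91 FPKM in the control pool, from 20 and 46 counts, with intervals of 1.25 to 3.17 and 3.59 to 6.55 FPKM. The knockout value was lower without overlap of the intervals, and the count ratio was 0.443 (0.248 to 0.764). Its log2 ratio of -0.95 lay just inside the 2-fold rule, and it was past it with a pseudocount of 0.1 FPKM (-1.22) and after rescaling to TPM (-1.07). Tph1 encodes tryptophan hydroxylase 1, which starts serotonin synthesis in enterochromaffin cells and in mouse mast cells (chromosome 7, 46644641 to 46672537, minus strand). It was at 3.94 FPKM in the knockout pool and 4.14 FPKM in the control pool, from 130 and 138 counts. The interval of its count ratio of 0.960, which was 0.749 to 1.23, includes 1. Relative to Tph1, Tac1 was 0.463 times as high in the knockout pool as in the control pool (0.245 to 0.847).

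Cells other than enterochromaffin cells that use these genes were followed by markers. Measured mast cell markers were higher in the knockout pool, where 3 of 6, Mcpt1, Mcpt2 and Cpa3, were at least 2-fold higher. Over all measured genes, 2.78% were at least 2-fold higher. Cpa3, Mcpt4 and Fcer1a passed the filter of 1 FPKM through the knockout pool alone. Hdc, below the filter, had 12 counts in the knockout library and 17 in the control library. Mcpt1, a protease of mucosal mast cells, was at 38.91 FPKM in the knockout pool and 6.85 FPKM in the control pool, and the list summed to 70.41 and 16.91 FPKM. Their part in the Tph1 value was not tested. Enteric neuron markers summed to 20.59 FPKM in the knockout pool and 19.70 FPKM in the control pool, with 0 of 6 measured past 2-fold and a median log2 ratio of -0.20, which was 0.06 without the filter. Tubb3, a neuronal tubulin, was at 3.56 and 2.01 FPKM, and Uchl1, a neuronal ubiquitin hydrolase, at 5.27 and 6.07 FPKM. Islet cells of the pancreas also make Gcg, Sst and Ghrl. Of their markers, Ins1 was listed at 0 in both pools, and Ins2 had 1 count in the knockout library and 0 in the control library. Of the 7 islet markers in the table, 1 reached 1 FPKM, the homeobox gene Pdx1, which the duodenum also expresses, at 54.72 FPKM in the knockout pool and 29.12 FPKM in the control pool. Iapp had 6 counts in each library and Ucn3 had 8 in the knockout library and 3 in the control library. The list summed to 57.08 FPKM in the knockout pool and 30.55 FPKM in the control pool, and its part in the hormone values was not tested.

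The order of the members by FPKM differed between the pools. In the knockout pool it was Sct, Ghrl, Gip, Cck, Sst, Tph1, Pyy, Tac1, Gcg and Nts. Counting intervals separated neighbours there at 2 places, between Sst and Tph1 and between Tac1 and Gcg. In the control pool it was Gip, Sst, Cck, Sct, Ghrl, Gcg, Tac1, Tph1, Nts and Pyy, with separated neighbours at Gip and Sst, Sct and Ghrl, and Ghrl and Gcg. The upper 5 genes were the same in both pools and lay between 33.07 and 80.87 FPKM, and the lower 5 between 0.57 and 6.21 FPKM.

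The 9 peptide hormone genes summed to 243.1 FPKM in the knockout pool and 283.6 FPKM in the control pool. Within that sum, Gip held 18.3% in the knockout pool and 28.5% in the control pool. Ghrl held 21.7% in the knockout pool and 11.7% in the control pool, and Sct 24.5% and 17.0%. The share of Cck was nearly the same, 16.8% in the knockout pool and 17.1% in the control pool. Gcg, Pyy and Nts were small parts in both, and Gcg held 0.259% in the knockout pool and 2.19% in the control pool.

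**Figure D3:**
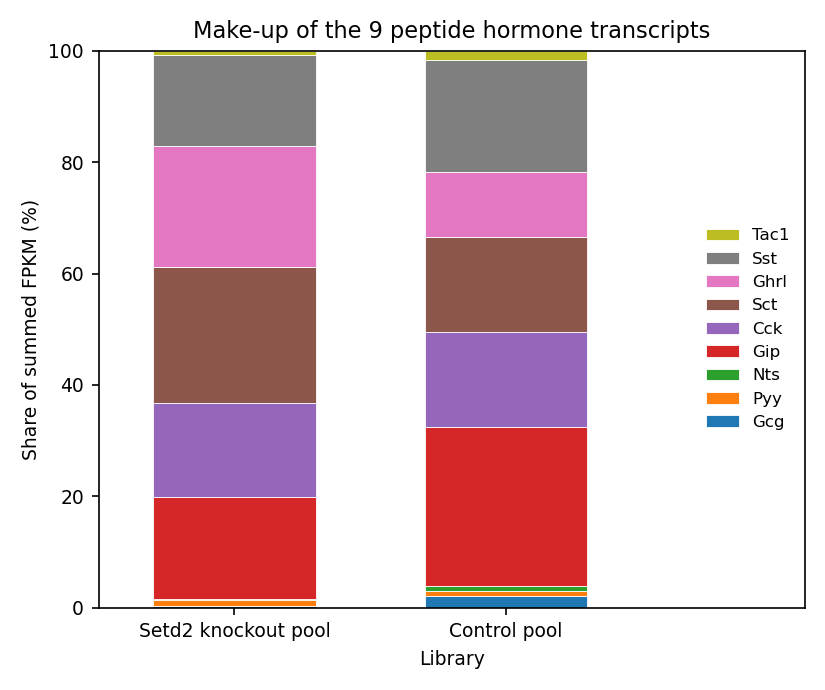
Share of the summed FPKM of the 9 peptide hormone genes (%) in the Setd2 knockout pool (left bar) and the control pool (right bar), 1 library each, without error bars. Gip takes 18.3% in the knockout pool and 28.5% in the control pool, and Ghrl 21.7% and 11.7%.

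By the 2-fold rule and by sign, general endocrine genes lay close to the background of the table, while their counting intervals leaned upward. Of 20 measured genes for granules, prohormone processing and amine synthesis, 1 was at least 2-fold higher, 0 were lower and 14 had a log2 ratio above 0, with a median of 0.28. Over all measured genes the shares were 2.78% higher, 1.28% lower and 62.5% above 0, with a median of 0.08. The counting interval of the ratio lay above 1 for 9 of the 20 and below 1 for 0, against 28% and 12.5% of all measured genes. Chga, the granule protein chromogranin A, was at 41.03 FPKM in the knockout pool and 26.07 FPKM in the control pool, from 681 and 441 counts, a ratio of 1.57 (1.39 to 1.78). Chgb, chromogranin B, was at 45.29 FPKM in the knockout pool and 38.04 FPKM in the control pool. Scg5, the chaperone of the convertase PC2, was the gene past 2-fold, at 2.95 and 0.84 FPKM. It passed the filter of 1 FPKM through the knockout pool alone. Scg2, another granin, was at 5.90 FPKM in the knockout pool and 7.29 FPKM in the control pool, and Snap25, a protein of vesicle fusion, at 2.14 and 2.82 FPKM. Ddc, which completes serotonin synthesis and is the most abundant gene of the list, was at 127.55 FPKM in the knockout pool and 104.76 FPKM in the control pool.

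Set against the summed counts of Chga and Chgb, 1757 in the knockout library and 1362 in the control library, 7 of the 10 members had an interval below 1, 0 had one above 1, and 3 had an interval that included 1. On the same measure 47.8% of all measured genes had an interval below 1 and 5.73% above 1, since the summed chromogranin counts were themselves higher in the knockout pool, at a ratio of 1.31 (1.22 to 1.41). Those 3 were Pyy (1.03, 0.398 to 2.79), Sct (0.943, 0.771 to 1.15) and Ghrl (1.20, 0.963 to 1.4997). Cck and Tph1, whose plain count ratios had intervals that included 1, were at 0.640 (0.529 to 0.773) and 0.730 (0.564 to 0.945) by this measure. Gcg was at 0.0776 (0.0273 to 0.180) and Gip at 0.418 (0.3504 to 0.498). The chromogranin genes are also active in neurons, whose markers are given above.

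Measured transcription factors of the lineage were higher or close between the pools. Of the 20 on the list, 10 were measured. Of these, 3 were at least 2-fold higher, 0 were lower and 9 had a log2 ratio above 0. Among all measured genes, 2.78% were higher, 1.28% lower and 62.5% above 0. The 10 measured factors had a median of 0.61, against 0.08 for all measured genes. That 0.61 became 0.18 without the filter on low values and 0.19 with a pseudocount of 5 FPKM. Foxa2, a forkhead factor needed with Foxa1 for L-cell and D-cell hormones in mice, was at 4.07 FPKM in the knockout pool and 1.26 FPKM in the control pool, and Hhex, a homeobox factor of D cells in the pancreas, at 4.92 and 1.57 FPKM. Foxa1 was the other gene past 2-fold, at 5.65 FPKM in the knockout pool and 2.26 FPKM in the control pool. The early factors were close: Atoh1 was at 5.67 and 5.35 FPKM, and Neurog3, the factor that commits cells to the endocrine fate, at 1.51 and 1.41 FPKM. Insm1, which acts after Neurog3, was at 0.99 FPKM in the knockout pool and 1.08 FPKM in the control pool. Pancreatic and gastric transcripts were higher in the same pool as these factors, some of which are made in those organs too. The part of those organs in these values was not tested.

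Other gut peptide genes included some with higher values in the knockout pool. Of 7 measured, 3 were at least 2-fold higher, Penk, Npy and Cartpt, and 0 lower, against 2.78% and 1.28% of all measured genes. A log2 ratio above 0 was seen for 5, against 62.5% of all measured genes. Npy and Cartpt passed the filter of 1 FPKM through the knockout pool alone. The median log2 ratio was 0.79, or 0.48 without the filter and 0.42 with a pseudocount of 5 FPKM. Penk, which encodes the enkephalin precursor, was at 4.93 FPKM in the knockout pool and 1.03 FPKM in the control pool, from 61 and 13 counts. Npy, a neuronal relative of Pyy, had 14 counts in the knockout library and 2 in the control library. Vip, the relaxant peptide of enteric neurons, was at 9.41 and 5.03 FPKM, while Gal, the galanin gene, was at 1.71 and 1.85 FPKM and Adm, the adrenomedullin gene, at 1.18 and 1.96 FPKM. Insl5, an L-cell hormone of the colon, was listed at 0 in both pools.

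Genes that sense nutrients or receive and remove the hormones gave no measured member past 2-fold, and 95.9% of all measured genes also lay within 2-fold. The 7 measured sensing genes had a median log2 ratio of 0.02, which was -0.02 under median-ratio scaling and -0.44 with a filter at 5 FPKM. The receptor genes Ffar2, Ffar3 and Ffar4 for fatty acids had 43.01, 25 and 20 counts in the knockout library, against 39, 21 and 20 in the control library. Trpa1, an irritant channel of enterochromaffin cells, was at 1.77 FPKM in the knockout pool and 0.95 FPKM in the control pool. The glucose and peptide carriers Slc5a1 and Slc15a1, which enterocytes also express, were at 910.4 and 106.5 FPKM in the knockout pool, against 1239 and 168.0 FPKM in the control pool. The 10 measured genes for receptors and removal had a median of -0.14 (0.12 without the filter). Some receptor genes below the filter had count ratios past 2-fold: Gipr, the receptor of GIP, had 10 counts in the knockout library and 2 in the control library (ratio 5.09, 1.09 to 47.8), and Cckar, a cholecystokinin receptor, 18 and 4 (4.59, 1.51 to 18.6). Glp2r, the receptor of GLP-2, was at 3.80 FPKM in the knockout pool and 2.69 FPKM in the control pool, and Sort1, a sorting receptor that binds neurotensin, at 22.71 and 14.90 FPKM. Slc6a4, the serotonin carrier of enterocytes, was at 19.56 and 29.83 FPKM, and Mme, a peptidase that degrades several of the hormones, at 181.7 and 279.3 FPKM. Outside the naming rule, Ffar2, Ffar4, Chgb, Foxa1, Pax4, Prox1, Cartpt, Insl5, Cpa3, Mcpt4, Hdc, Amn, Slc40a1, Gipr, Cckar, Iapp, Ucn3, Ins1 and Ins2 were chosen after their values were seen.

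**Figure D4:**
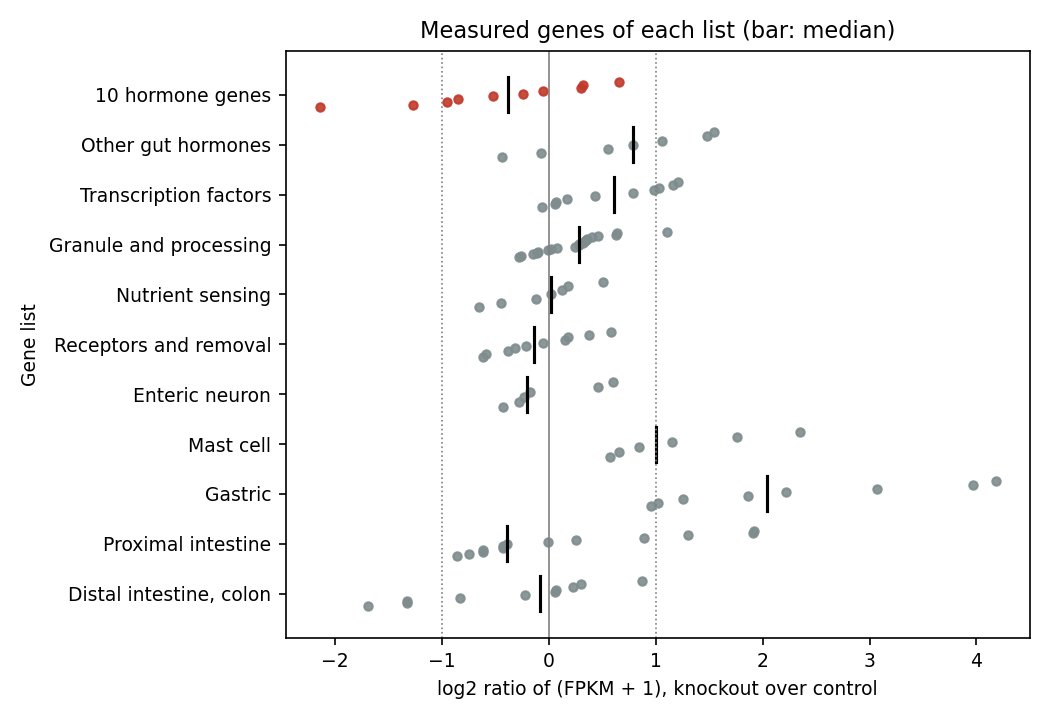
Log2 ratio of FPKM + 1, knockout over control, of each measured gene in the hormone gene set (red) and 10 other gene lists (grey), with a black bar at each list's median and dotted lines at 2-fold. The median is -0.38 for the hormone genes and 0.28 for the granule and processing genes.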

How the data were processed

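Intestinal RNA of 2 pooled samples was measured by sequencing. Per the labels' protocols, reads were mapped to mm10 with BWA and Bowtie and quantified with RSEM, and per the submitters' processing notes the aligner was Bowtie2; versions and strand settings are not given in the sources used here. The sample files hold expected counts per gene, deposited as RSEM estimated them, in which reads that fit several genes are divided. They also hold FPKM, which the authors scaled to transcript length and mapped total and deposited with 2 decimals. The series table repeats these FPKM, and genes missing from a sample file stand at 0 there. Gene positions came from GENCODE M21 (mm10) and promoters from RefSeq (GRCm38.p6), which held all 10 members.

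Genes at 1 FPKM or more in at least 1 library counted as measured (13253 of 18919). Fold differences are log2((knockout FPKM + 1)/(control FPKM + 1)), which understates those of low genes, with 2-fold as the threshold. Count ratios were scaled to the library totals, with exact 95% Clopper-Pearson intervals on counts rounded to whole numbers. Ratios of ratios were conditional odds ratios with exact intervals (scipy 1.17.1, Python 3.11.15). Levels carry exact Poisson intervals. All intervals cover counting error only, not mice or pools, and the methods were tested on simulated data. The members and the 13 other lists were chosen with earlier results of these data known. Named genes are the members, Setd2, Apc, and per list the 2 highest, the 2 lowest and the most abundant measured gene. Alternatives were other pseudocounts, scalings, filters, library totals and rounding. Gast, Ppy, Ghsr, G6pc2, Atp4b, Car1 and Hoxd10 of the lists were not analysed here.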

Additional observations from a re-analysis of the deposited data

How the results depend on the processing

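All 50 log2 ratios of the 10 members under 5 alternatives had the sign of the reported value. The alternatives were pseudocounts of 0.1 and 5 FPKM, TPM, median-ratio scaling and CPM of expected counts. A pseudocount cannot change the sign of a log2 ratio, so under those 2 settings the signs were fixed in advance. TPM rescales FPKM by totals that were close, 512858 in the knockout library and 518077 in the control library. Sizes moved more: with a pseudocount of 5 FPKM, Gcg went from -2.15 to -0.99 and Nts from -1.27 to -0.48. On the log2 scale both of these values lie above the counting intervals of their count ratios. The number of members at least 2-fold lower was 2 as reported, 3 with a pseudocount of 0.1 FPKM and with TPM, 1 with a filter at 5 FPKM and 0 with a pseudocount of 5 FPKM. Over the whole table, the 369 higher and 170 lower genes became 699 and 282 with a pseudocount of 0.1 FPKM, 106 and 50 with 5 FPKM, and 191 and 84 with the filter at 5 FPKM. The median log2 ratio of mast cell markers was 0.37 with a pseudocount of 5 FPKM, against 1.001 as reported, and that of pancreatic acinar markers 5.11 and 3.68 with pseudocounts of 0.1 and 5 FPKM, against 4.49. Each of these follows from how low values are treated. The median of the sensing genes, 0.02, was -0.02 under median-ratio scaling and -0.44 with the filter at 5 FPKM. Without a filter the medians of the receptor, enteric neuron and distal lists changed sign, to 0.12, 0.06 and 0.06. Count ratios without the acinar list in the library totals stayed within their intervals. That list held only 0.316% of the counts in the knockout library and 0.0122% in the control library, so little change was possible. Rounding counts down could not change the ratios of ratios, because the expected counts of the genes in them were already whole numbers. No paired analysis was possible because each genotype had 1 library. Leaving out a replicate was not possible for the same reason. Gcg and Nts rest on 6 counts each in the knockout library, so depth limits the size of their difference.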
